A study of Brassica napus with 6 samples.

Results

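The transcripts described here are the most abundant tabulated sequences of control rapeseed (Brassica napus) flower buds for which the deposited tables give no Brassica rapa gene. Of 65535 assembled transcripts tabulated in each library, 19813 have no such match and 45722 have one. The 19813 were ranked by their mean level in the 3 control libraries, as the count divided by the library's tabulated total and multiplied by 1000000 (CPM), and the 200 highest were taken. Ranks and shares refer to the tabulated transcripts only, whose counts make up between 30.1% and 34.1% of the read totals that the RPKM values imply. Levels and ranks are those of the libraries, for which the labels name normalized cDNA, and need not equal abundance in the bud. The control levels chose the transcripts and are given as a description. All 200 passed the low-count filter, an upper quartile of at least 10 counts across the libraries, which left 24958 transcripts for testing, 2843 of them without a match.

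Buds came from cultivar Qinyou3 in 2 groups with 3 biological replicates each. The amidosulfuron group was sprayed at bolting with 0.3 mg/L of the herbicide, and the control group was sprayed with water. Both groups were grown in the field through vernalization, moved to a greenhouse and sampled as young floral buds at meiosis of the pollen mother cells. The sources used here do not give the number of plants behind a library. The comparison asks how transcript levels in the bud differ after a chemical that the series title calls a male gametocide.

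Rapeseed is an allotetraploid that carries the genomes of Brassica rapa and Brassica oleracea, so its transcripts come from a pair of related parental gene sets. Amidosulfuron is a sulfonylurea, a class of herbicides that blocks acetolactate synthase and with it the synthesis of valine, leucine and isoleucine. A Trinity assembly groups overlapping sequences into components, and the sequences of a component are alternative assemblies that can stand for splice forms, alleles or related gene copies. The lack of a match describes a comparison with the gene set of one parent and says nothing of a transcript's function. The tables pair none of the 200 with a gene name, no transcript sequences are shown, and the tissue label was not checked against marker genes.

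The tabulated counts per library ran from 1942711 to 2867528 in the amidosulfuron group and from 2218787 to 3596321 in the control group. Unmatched transcripts took 7.38% to 7.70% of them in the amidosulfuron libraries and 6.81% to 8.59% in the control libraries. Amidosulfuron 2 and control 3 deviated from their group means in the most similar way. Across all tested transcripts these deviations correlated at 0.36, the highest of the 9 pairs formed between the groups. The lowest was -0.40, for amidosulfuron 3 and control 3. With 3 libraries per group, such correlations do not show which libraries are outliers. Fits without amidosulfuron 2 and control 3 are given below as variants, and that pair was chosen from these same data.

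A single transcript stood far above the rest of the 200. The transcript comp52274_c0_seq2, 1259 bp long and the only tabulated sequence of its component, had the highest mean control level of all 65535 transcripts, matched ones included. It had 11495, 4848 and 4373 CPM in amidosulfuron buds, against 13307, 3630 and 6236 CPM in control buds. Its level was high in replicate 1 of each group, and the groups overlapped over most of their range. The means were 6905 ± 3982 CPM in amidosulfuron buds and 7725 ± 5007 CPM in control buds (SD, n = 3). Per length and mapped read the means were 1704 ± 907 RPKM in amidosulfuron buds and 2049 ± 1383 RPKM in control buds (SD, n = 3). The transcript had rank 1 among all transcripts in amidosulfuron 1, amidosulfuron 2, control 1 and control 3, at rank 3 in amidosulfuron 3 and at rank 5 in control 2. Its fitted log2 fold between the groups was -0.14 ± 0.55 (standard error; edgeR, adjusted p = 0.951), and the sign turned in 3 of the 6 fits without 1 library.

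Below that transcript the control levels declined gradually. Of the 200, 8 had a mean control level of at least 500 CPM and 117 of at least 100 CPM, and 5 were among the 100 highest of all transcripts. The median of the mean level was 96.5 CPM in amidosulfuron buds (quartiles 65.6 and 160) and 108.5 CPM in control buds (quartiles 78.1 and 169). The 200 highest matched transcripts, ranked in the same way, had medians of 741 CPM in amidosulfuron buds and 680 CPM in control buds. The lower end of the list was set by the rank limit alone. The last transcripts inside it, comp55234_c1_seq7 and comp46802_c0_seq1, had control means of 60.3 and 60.0 CPM, and the transcripts just outside, comp57893_c0_seq5 and comp40850_c0_seq3, had 60.0 and 59.8 CPM.

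**Figure D1:**
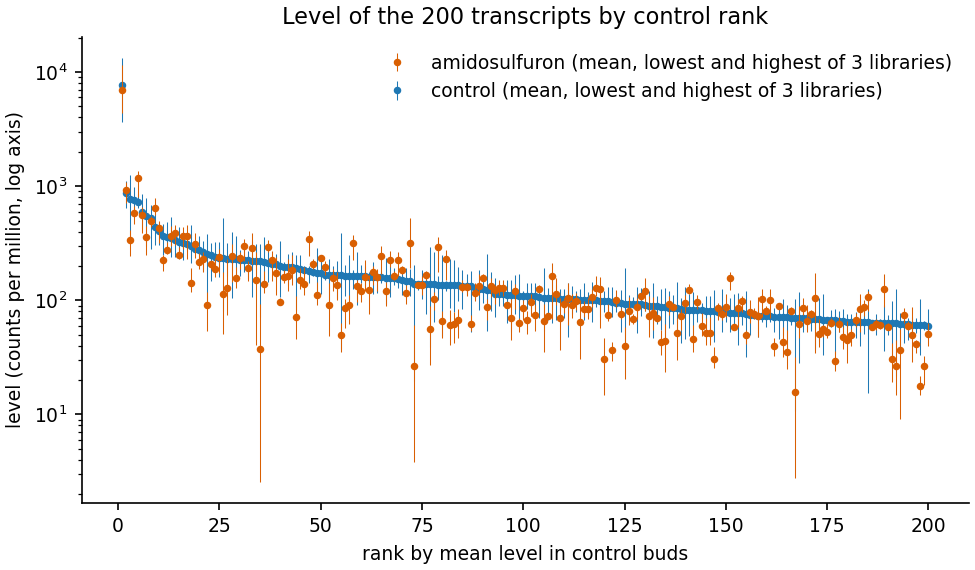
Level of each of the 200 transcripts in CPM (log axis) against its rank by mean control level. Points are group means and bars run from the lowest to the highest of the 3 libraries (orange, amidosulfuron; blue, control). The first transcript has means of 6905 CPM (amidosulfuron) and 7725 CPM (control), the control means decline to 60.0 CPM by construction, and the amidosulfuron means scatter around them down to 15.6 CPM.

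The next transcripts by control level differed in how the groups lay. The transcript comp35550_c0_seq1 (1124 bp) had 713, 950 and 1098 CPM in amidosulfuron buds, against 649, 1108 and 833 CPM in control buds. The transcript comp43313_c0_seq2 (1398 bp) had 465, 599 and 676 CPM in amidosulfuron buds, against 986, 668 and 595 CPM in control buds. The transcript comp46896_c0_seq1 (1443 bp) had 389, 654 and 631 CPM in amidosulfuron buds, against 420, 849 and 525 CPM in control buds. In these 3 the groups overlapped, with log2 folds of 0.13 ± 0.27, -0.35 ± 0.28 and -0.06 ± 0.30 (standard error; edgeR, lowest adjusted p = 0.686). Without control 1 the log2 fold of comp43313_c0_seq2 was -0.06.

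Both other transcripts of the 6 highest lay further apart between groups. The transcript comp42239_c0_seq1 (1318 bp) had 363, 415 and 244 CPM in amidosulfuron buds, against 1248, 727 and 351 CPM in control buds, so that only control 3 lay within the amidosulfuron range. Its fitted log2 fold was -1.17 ± 0.44 (standard error; edgeR, unadjusted p = 0.0252, adjusted p = 0.394). The transcript comp36407_c0_seq4 (994 bp) had 1346, 807 and 1370 CPM in amidosulfuron buds, against 639, 680 and 857 CPM in control buds, where amidosulfuron 2 lay just below control 3. Its fitted log2 fold was 0.74 ± 0.30 (standard error; edgeR, unadjusted p = 0.034, adjusted p = 0.419). Without control 1 the log2 fold of comp42239_c0_seq1 was -0.59 (edgeR, adjusted p = 0.748), and without control 3 and amidosulfuron 2 it was -1.64 (adjusted p = 0.0917 in edgeR and 0.00444 in DESeq2). That of comp36407_c0_seq4 was 1.12 in edgeR (adjusted p = 0.0659) and 1.13 in DESeq2 (adjusted p = 0.019).

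Together the 200 took a few percent of the tabulated counts, and the groups overlapped. Their share was 3.71%, 3.30% and 3.45% in the amidosulfuron libraries, against 4.24%, 3.99% and 3.21% in the control libraries. The 95% Wilson intervals were at most 0.027 percentage points to either side and cover counting error only. Control 3 had the lowest share of the 6 libraries, and the other control libraries had the highest. The means were 3.49% ± 0.208 in amidosulfuron buds and 3.81% ± 0.539 in control buds (SD, n = 3), a difference of -0.326 percentage points that is smaller than the spread of the control libraries. Without control 3 and amidosulfuron 2 the difference was -0.535 percentage points. The transcript comp52274_c0_seq2 held 31.0%, 14.7% and 12.7% of this sum in the amidosulfuron libraries and 31.4%, 9.10% and 19.4% in the control libraries. Without it the share was 2.56%, 2.81% and 3.01% in the amidosulfuron libraries and 2.91%, 3.63% and 2.58% in the control libraries. The 200 highest matched transcripts took 19.0% ± 1.06 in amidosulfuron buds and 18.5% ± 0.803 in control buds (SD, n = 3).

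**Figure D2:**
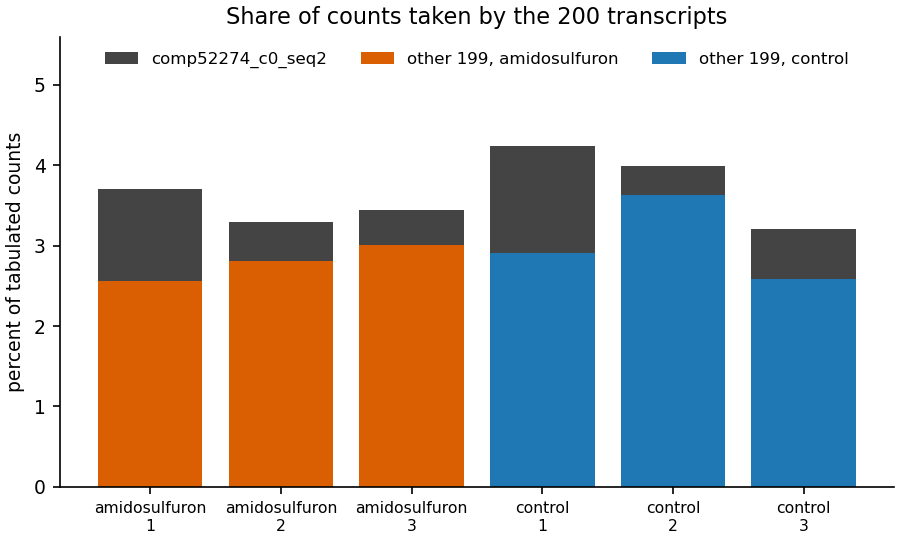
Percent of the tabulated counts taken by the 200 transcripts in each library, with comp52274_c0_seq2 in dark grey on top of the others (orange, amidosulfuron; blue, control). The sum lies between 3.21% and 4.24%, and the dark part is largest in replicate 1 of each group.

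The 200 were longer than most transcripts without a match, a property the ranking did not use directly. Lengths, obtained by dividing counts by RPKM, ran from just over 200 bp to 2922 bp with a median of 840 bp (quartiles 467 and 1236). The median was 573 bp over the 2843 unmatched transcripts past the low-count filter, 899 bp over all tested transcripts and 856 bp over the 200 highest matched transcripts. At least 1000 bp were reached by 78 of the 200 (39.0%), against 21.9% of the tested unmatched transcripts. A length from 1300 to 1499 bp was found for 31 of the 200 (15.5%), against 4.68% of the tested unmatched and 9.08% of the tested matched transcripts, a range chosen after the lengths were seen. The shortest, comp56886_c1_seq29, had a mean of 183 CPM in amidosulfuron buds and 195 CPM in control buds, and the longest, comp58220_c0_seq12 with 2922 bp, had 53.2 CPM in amidosulfuron buds and 67.0 CPM in control buds.

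The median length of the list depended on the unit used for ranking. CPM is not divided by length, whereas RPKM is. Ranked by mean control RPKM in place of CPM, the 200 highest unmatched transcripts shared 129 with the list and had a median length of 352.5 bp. Within the 200, length and mean control CPM had a Spearman correlation of 0.07 across transcripts, which share libraries and are not independent replicates.

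**Figure D3:**
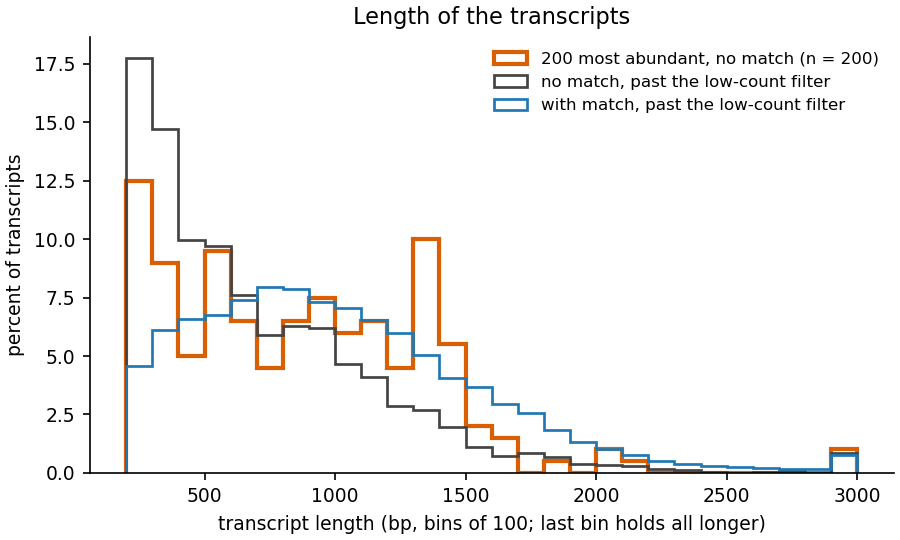
Length distribution in bins of 100 bp, as percent of the transcripts of each set (orange, the 200; dark grey, all unmatched transcripts past the low-count filter; blue, all matched ones past it). Lengths under 300 bp make up 12.5% of the 200, 17.8% of the tested unmatched and 4.56% of the tested matched transcripts, and the 200 have a second high point between 1300 and 1499 bp.

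Many of the 200 were the only tabulated sequence of their component, which may have further sequences beyond the tabulated part. This held for 122 of 200 (61.0%), against 71.3% of all unmatched, 48.2% of the tested unmatched and 37.5% of the tested matched transcripts. The 200 came from 180 components, of which 167 gave 1 transcript each and 13 gave several. The counts of 51 of the 200 (25.5%) were whole numbers in all 6 libraries, against 20.8% of the tested unmatched and 11.0% of all tested transcripts. The others held fractions of reads. How the authors shared such reads out was not stated, so values of similar sequences may depend on each other.

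The component with the most members, comp53466_c0, contributed 7 of its 9 tabulated transcripts, none of which has a match. Their lengths were 221 to 581 bp. Summed over the 7, the level was 2503, 1589 and 2359 CPM in amidosulfuron buds, against 2302, 1777 and 1367 CPM in control buds. The groups overlapped, and amidosulfuron 2 was the lowest treated library and control 3 the lowest control library. In comp53466_c0_seq11 the level was 265, 171 and 299 CPM in amidosulfuron buds, against 182, 154 and 141 CPM in control buds, with overlap from amidosulfuron 2 only (log2 fold 0.66 ± 0.29, standard error; edgeR, adjusted p = 0.445). In comp53466_c0_seq2 it was 443, 298 and 363 CPM in amidosulfuron buds, against 532, 285 and 241 CPM in control buds. The mean levels of comp53466_c0_seq15, comp53466_c0_seq6, comp53466_c0_seq5, comp53466_c0_seq7 and comp53466_c0_seq10 lay between 120 and 386 CPM in amidosulfuron buds and between 110 and 340 CPM in control buds. The fitted log2 folds of the 7 ran from 0.09 to 0.66. With all tabulated counts of the component summed, the log2 fold was 0.32 ± 0.31 (standard error; edgeR, adjusted p = 0.75).

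The component comp57446_c0, named after its values were seen, contributed all 4 of its tabulated transcripts, with lengths of 630 to 673 bp. Their summed level was 849, 837 and 1116 CPM in amidosulfuron buds, against 1086, 1616 and 903 CPM in control buds. The groups overlapped, and the 4 profiles differed by at most 0.11 on the log2 scale in any library.

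**Figure D4:**
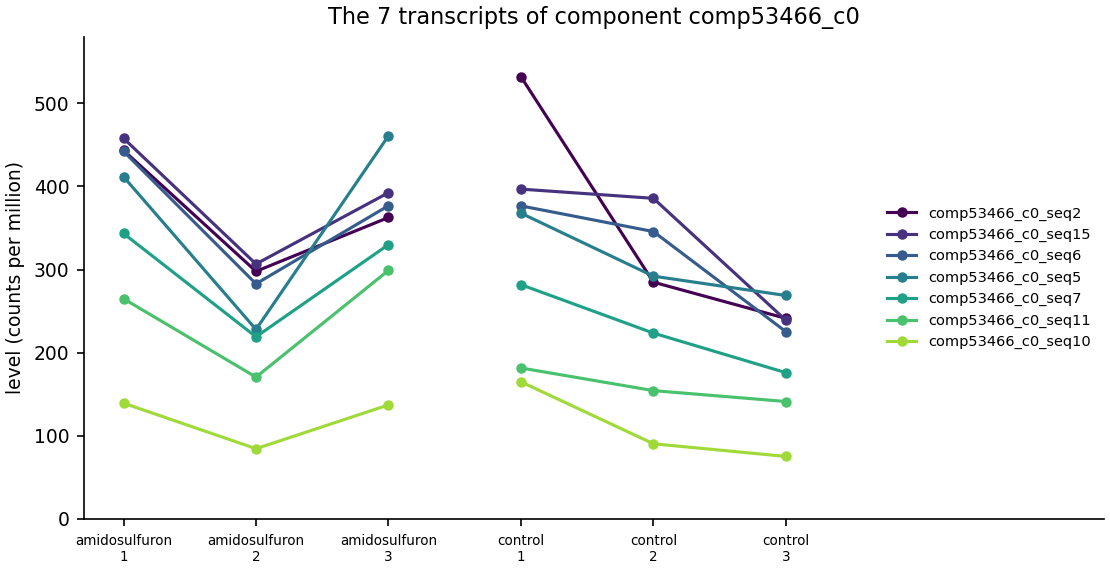
Level in CPM of the 7 transcripts of component comp53466_c0 among the 200, in the amidosulfuron libraries (left) and the control libraries (right). Lines only link the values of a transcript; replicates have no order. All 7 are lowest in amidosulfuron 2 among the treated libraries and in control 3 among the control libraries.

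Some transcripts of different components had nearly the same profile over the 6 libraries. In 19 of 19900 pairs of members the log2 profiles, each centred on its own mean, differed by less than 0.1 in every library, and 11 of these pairs joined different components. The closest pair, comp29663_c0_seq1 and comp28094_c0_seq1, have the same length of 840 bp. The transcript comp29663_c0_seq1 had 245.5, 205.5 and 222.8 counts in the amidosulfuron libraries and 269.7, 177.5 and 154.5 in the control libraries. The transcript comp28094_c0_seq1 had 244, 202.5 and 223.3 counts in the amidosulfuron libraries and 264.7, 177 and 154.5 in the control libraries. The counts of these transcripts differed by at most 5 in any library. Whether such pairs share reads, or are copies from both parental genomes, is not given in the tables. The pairs were chosen after their values were seen.

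For 16 of the 200 (8%), against 12.4% of all unmatched transcripts, the same component also held transcripts with a Brassica rapa match. For 10 of the 16 the match was to a single gene. The member held a median of 52.9% of the component's tabulated counts in amidosulfuron buds and 45.1% in control buds. In 11 of the 16 the member's mean level was above the sum of the matched transcripts in amidosulfuron buds, and in 9 of the 16 it was so in control buds. The transcript comp58262_c0_seq5 (609 bp) held 91.3% of its component's tabulated counts in amidosulfuron buds and 92.3% in control buds. The rest belonged to a transcript matched to Brara.I02358. The transcript comp47954_c0_seq2 (1347 bp) had a mean of 194 CPM in amidosulfuron buds and 168 CPM in control buds, while the transcripts of its component matched to Brara.D01826 summed to 190 CPM in amidosulfuron buds and 492 CPM in control buds. The median log2 fold was -0.12 over the 16 members, and the median of the typical fold of the tested matched transcripts beside them was -0.23. These examples were named after their values were seen.

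None of the 200 passed the test between the groups. At an adjusted p under 0.05, 0 were higher and 0 were lower after amidosulfuron (edgeR quasi-likelihood test, Benjamini-Hochberg adjustment over all 24958 transcripts, smallest adjusted p among the 200 = 0.182). Over all tested transcripts 0.16% were called higher and 0.0321% lower. At an unadjusted p under 0.05, 9 of the 200 (4.50%) were higher and 29 (14.5%) were lower, against 5.76% and 5.38% of all tested transcripts. The control values chose the 200 and also enter this contrast, so the choice can favour lower values. DESeq2 called 0 higher and 3 lower at an adjusted p under 0.05, against 0.741% and 0.465% of all tested transcripts, and limma-voom called 0 and 0. At an unadjusted p under 0.05, DESeq2 had 9 higher and 32 lower, against 4.2% and 3.56% of all tested transcripts, and limma-voom had 9 and 24, against 5.59% and 3.9%. The groups did not overlap for 10 transcripts with the higher values in amidosulfuron buds and for 15 with the lower values there, against 7.58% and 8.38% of all tested transcripts. In whole buds, fewer cells of a type and less RNA per cell cannot be told apart.

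The predominance of lower values was present under some rankings and absent under others. Of the fits without 1 library, that without control 2 moved the median fold the most. The median log2 fold of the 200 was -0.13 (quartiles -0.54 and 0.17), against -0.02 over all tested transcripts and 0.11 over the 200 highest matched transcripts, which were also chosen by control level. Without control 2, in which most of the 200 had their highest control value, the median was -0.02. Without amidosulfuron 1 it was -0.06. With the same number of unmatched transcripts ranked by their mean over all 6 libraries, 182 were shared, the median was -0.01, and 22 were higher and 20 lower at an unadjusted p under 0.05 (edgeR). Ranked by the mean of the amidosulfuron libraries, 165 were shared, the median was 0.10, and 36 were higher and 13 lower. By mean control RPKM, 31 were higher and 31 lower. The 100 highest by control CPM had 7 higher and 15 lower, and the 400 highest had 31 and 58. The ranking by control level and the contrast use the same control values, so the choice can favour lower values in the other group. The 200 highest matched transcripts, also chosen by control level, had 27 higher and 19 lower at an unadjusted p under 0.05 (edgeR). The part of the choice in these counts was not tested. Within the 200 the log2 fold had a Spearman correlation of -0.01 with control level and of 0.05 with length across transcripts. By length, the median log2 fold was -0.04 for the 43 shorter than 400 bp, -0.28 for the 51 of 400 to under 800 bp, -0.39 for the 53 of 800 to under 1200 bp and -0.02 for the 53 longer ones.

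**Figure D5:**
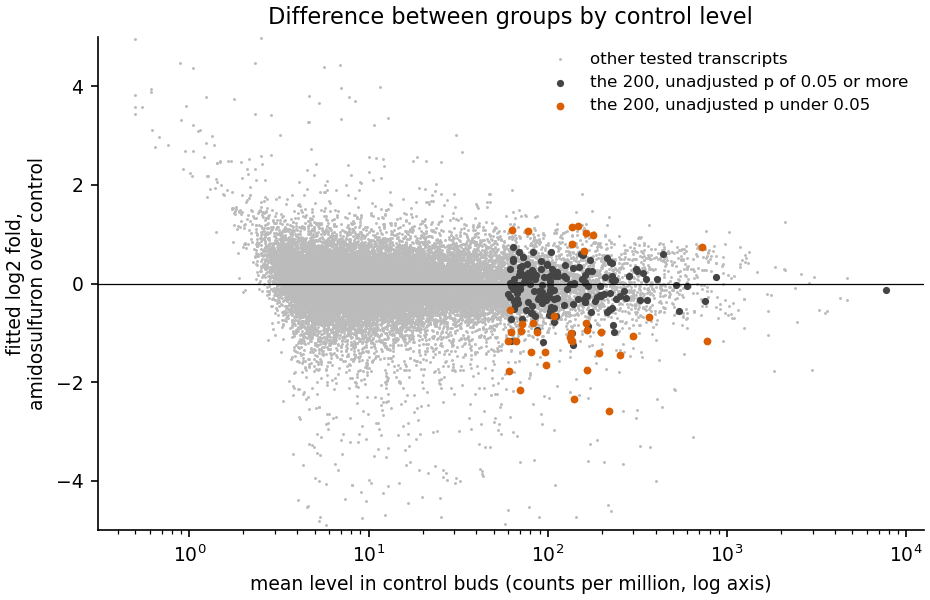
Fitted log2 fold (amidosulfuron over control) against mean control level in CPM (log axis) for all tested transcripts in grey and for the 200 in dark grey or orange (unadjusted p under 0.05). The axis ends at 5 in each direction and grey points beyond it are not drawn, and levels under 0.5 CPM are drawn at 0.5; the 200 run from -2.59 to 1.17.

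The highest unmatched transcripts were largely the same in both groups. Of the 10 highest by control level, 8 were also among the 10 highest by amidosulfuron level. The 35 that were not among the 200 highest by amidosulfuron level had a median rank of 280 there and a lowest rank of 779. The 35 found only in the amidosulfuron list had a median control rank of 276 and a lowest control rank of 3134. Across the 200 the mean levels of the groups had a Spearman correlation of 0.77.

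The 200 were chosen by control level, which the fitted differences also use, and this choice can favour lower values. A fitted difference of at least 2-fold was reached by 5 of the 200 with higher values and by 21 with lower values in amidosulfuron buds, against 2.77% and 4.26% of all tested transcripts. The largest positive one was that of comp3631_c0_seq1 (515 bp). It had 521, 240 and 190 CPM in amidosulfuron buds, against 109, 143 and 187 CPM in control buds (log2 fold 1.17 ± 0.41, standard error; edgeR, adjusted p = 0.375). The groups did not overlap, but amidosulfuron 3 lay only just above control 3, and amidosulfuron 1 was the high library. Without amidosulfuron 1 the log2 fold was 0.54 (edgeR, adjusted p = 0.93), and without control 3 and amidosulfuron 2 it was 1.59 in edgeR (adjusted p = 0.164) and 1.60 in DESeq2 (adjusted p = 0.0266). The largest negative one was that of comp16596_c0_seq1 (855 bp), which had 2.57, 93.1 and 15.5 CPM in amidosulfuron buds, against 310, 71.2 and 275 CPM in control buds (log2 fold -2.59 ± 0.97, standard error; edgeR, adjusted p = 0.394). Here amidosulfuron 2 lay above control 2, and the transcript had the highest coefficient of variation of the 200 in the amidosulfuron libraries, 132%. Its lowest value rested on 5 counts. Without amidosulfuron 2 the log2 fold was -4.54 (edgeR, adjusted p = 0.0674), and without control 3 as well it was -4.35 (edgeR, adjusted p = 0.073). With no filter on low counts it was -2.59 with an adjusted p of 0.0488 in edgeR.

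The 9 transcripts at an unadjusted p under 0.05 with higher values had a median length of 333 bp. Of these, 8 were under 600 bp, as were 13 of the 29 with lower values, 72 of the 200 (36.0%), 52.2% of the tested unmatched and 27.2% of all tested transcripts. The 9 came from 8 components, and comp33275_c0_seq1 and comp24892_c0_seq1 among them had profiles that differed by at most 0.06 on the log2 scale. Summed, they had 3836, 2224 and 3549 CPM in amidosulfuron buds, against 1508, 1871 and 1981 CPM in control buds. Amidosulfuron 2 was the lowest treated library for 8 of the 9, and control 1 the lowest control library for 8 of the 9. The 29 with lower values had a median length of 656 bp. Summed, they had 1753, 2303 and 1932 CPM in amidosulfuron buds, against 6162, 4737 and 2776 CPM in control buds. Control 3 was the lowest control library for 22 of the 29, and amidosulfuron 2 the highest treated library for 16. These sums describe transcripts chosen by the same contrast and are no test of it.

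Leaving out control 3 and amidosulfuron 2 moved the count of calls. Without control 3 and amidosulfuron 2, edgeR called 0 of the 200 higher and 6 lower at an adjusted p under 0.05, against 0.657% and 0.264% of all tested transcripts. DESeq2 on the same 4 libraries called 6 higher and 24 lower, against 1.34% and 0.677% of all tested transcripts. Without amidosulfuron 2 alone, edgeR called 1 higher and 0 lower, against 0.898% and 0.0641% of all tested transcripts. With no filter on low counts it called 0 higher and 4 lower, against 0.4% and 0.438%. With the replicate number as a block it called 0 and 0, against 0.301% and 0.176%. Control 3 and amidosulfuron 2 were picked from these same data, which can favour calls in the fits without them. Their part in the result was not tested further, and the fit without both has 2 libraries per group. The 3 transcripts that DESeq2 called lower with all 6 libraries were comp41353_c1_seq2 (255 bp), comp36334_c1_seq1 (228 bp) and comp23012_c0_seq1 (954 bp). The transcript comp36334_c1_seq1 had 37.8, 43.2 and 29.1 CPM in amidosulfuron buds, against 130, 71.0 and 89.7 CPM in control buds, without overlap (log2 fold -1.38; DESeq2, adjusted p = 0.0111). These were named because the count is small, after their values were seen.

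The spread between replicates of the 200 was close to that of other tested transcripts in amidosulfuron buds. The coefficient of variation over the 3 libraries had a median of 22.4% in amidosulfuron buds (quartiles 15.8% and 32.0%), against 25.2% over the tested unmatched transcripts, 22.9% over all tested transcripts and 22.3% over the 200 highest matched ones. In control buds, whose values chose the transcripts, the median was 30.8% for the 200, 31.8% over the tested unmatched transcripts, 26.2% over all tested transcripts and 16.6% over the 200 highest matched ones. The most even transcript over the amidosulfuron libraries was comp58262_c0_seq5, with 71.0, 73.8 and 74.9 CPM there, against 119, 127 and 67.8 CPM in control buds. Its treated libraries lay between control 3 and the other control libraries. Of the 200, 14 had fewer than 50 counts in at least 1 library.

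Control 2 was the library in which most of the 200 were highest among the controls. This held for 118 of 200 (59.0%), against 39.2% of all tested transcripts and 15.5% of the 200 highest matched ones. The median log2 difference of control 2 from the mean of the other control libraries was 0.39 for the 200, 0.07 over all tested transcripts and -0.17 for the matched ones. These control values also chose the 200 and the matched ones, so the comparison is a description only. Among the amidosulfuron libraries, amidosulfuron 1 was the highest for 27 of the 200 (13.5%), against 24.6% of all tested transcripts and 40.0% of the matched ones. The part of such library differences in the level of the 200 was not tested.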

How the data were processed

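Per the series' design text, the authors made digital gene expression libraries, aligned clean 36 nt reads with Bowtie2 2.1.0 (1 mismatch allowed) to an earlier Trinity assembly, and matched its transcripts to Brassica rapa FPsc 1.3. Normalized cDNA was used, per the labels. The deposited tables give estimated counts with fractions of reads, and no source used here says how multiply aligned reads were divided. The deposited RPKM values were scaled by the authors to length and library. Counts in the tables make up between 30.1% and 34.1% of the read totals that the RPKM values imply. Whether the remainder lies in transcripts beyond the tabulated ones, which were not analysed here, or in reads that did not align was not tested.

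CPM is the count divided by the column total. Lengths from count over RPKM came out whole for 100% of control values (tolerance 0.05 bp). Rounded counts of the 24958 transcripts past the design text's low-count filter were tested with edgeR 4.0.16 (R 4.3.3; quasi-likelihood, TMM, Benjamini-Hochberg, threshold 0.05). The procedure was tested on simulated data. The simulation used means and spreads of the fit itself, with libraries that differed only in size. It held no shared reads and does not bear on the 0 calls. DESeq2 1.42.0 and limma 3.58.1 were alternatives, beside other normalizations, filters, rankings and libraries left out. None of the 20674 Brassica rapa gene identifiers occurred in the RefSeq gene table of Brassica napus, which was searched by name only and not by sequence. Named transcripts are the 6 highest, the largest fitted fold each way, the shortest, the longest, the most and least even, those next to the rank limit and those of the largest component. The members and lists were chosen with earlier results of these data known. Reads carry no molecular identifiers, so intervals cover counting error only. Figures were drawn with matplotlib 3.10.9.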

Additional observations from a re-analysis of the deposited data

How the results depend on the processing

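The 0 calls in each direction held under limma-voom, library totals, DESeq2 size factors in edgeR, the RPKM denominators, filterByExpr, unrounded counts and the 7 other member lists, and with counts summed per component. DESeq2 called 3 lower, edgeR with no filter on low counts 4 lower, and edgeR without control 3 and amidosulfuron 2 called 6 lower; DESeq2 without those libraries called 6 higher and 24 lower. Leaving out 1 library gave 0 to 1 higher (the 1 without amidosulfuron 2) and 0 to 0 lower. The replicate number as a block gave 0 higher and 0 lower with a median log2 fold of -0.09. Same-numbered libraries correlated at 0.14, -0.12 and -0.40 in their deviations from group means. With 3 libraries per group, these correlations show no common pairing by number but cannot exclude it. The median log2 fold (-0.13) ran from -0.23 (RPKM denominators, where all tested transcripts had -0.12) to 0.10 (ranking by the amidosulfuron libraries), and from -0.17 to -0.02 without 1 library (-0.02 without control 2). The median length (840 bp) was 776.5 bp ranked over 6 libraries, 680 bp ranked over the amidosulfuron libraries, 352.5 bp ranked by RPKM, 852.5 bp for the 100 highest, 796 bp for the 400 highest and 996 bp for the 51 transcripts with whole counts. The difference in summed share, amidosulfuron minus control (-0.326 percentage points), ran from -0.628 to -0.112 without 1 library. Signs turned without 1 library for comp52274_c0_seq2 (0.09 without amidosulfuron 2, 0.12 without amidosulfuron 3, 0.56 without control 1; range -0.79 to 0.56), comp35550_c0_seq1 (-0.023 without amidosulfuron 3, -0.02 without control 1; range -0.023 to 0.31) and comp46896_c0_seq1 (0.11 without amidosulfuron 1, 0.23 without control 2; range -0.24 to 0.23). DESeq2 without control 3 and amidosulfuron 2, the list of whole counts, the list without comp52274_c0_seq2 and the sum per component were added after the data were examined. The causes were not tested.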
